A study of Mus musculus with 12 samples.

Results

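The genes described here are 10 genes of brain capillary endothelium that build and run the blood-brain barrier: the junction genes Cldn5, Ocln and Tjp1, the adhesion gene Pecam1, the carrier genes Slc2a1, Slc7a5, Mfsd2a and Slco1a4, and the efflux pump genes Abcb1a and Abcg2. They were chosen by symbol, and each was found once among the 30165 genes of the OPC (oligodendrocyte precursor cell) table and once among the 17918 genes of the neuron table. The study compared sorted cells of the cortex of control (ctl, labelled WT) mice and of dKO mice, in which floxed alleles of the L-type calcium channel genes Cacna1c and Cacna1d were to be deleted by NG2-CreERT2 once tamoxifen had been given (100 mg/kg, on postnatal day 7 and again on day 8). There were 4 groups (OPC ctl, OPC dKO, Neuron ctl, Neuron dKO) of 3 libraries, and the methods give pools of 2 mice of one genotype and 6 mice per genotype. Whether the OPC and neuron libraries came from the same mice is not given in the sources used here. OPCs were captured on a magnetic column by their CD140, NG2 or O4. Neurons were what passed through such a column after cells with ACSA-2, O4, CD11b or CD31 had been bound to beads, and CD31 is the protein that Pecam1 encodes. The NG2 promoter, which drives the recombinase, is known to be active in pericytes of the capillary wall as well as in OPCs. Most mouse lines of the study were kept on a C57BL/6N background. The age of the mice at sorting, and whether ctl mice carried the Cre or the floxed alleles, are not given in the sources used here.

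Capillary endothelial cells of the brain are sealed to each other by tight junctions, take up few vesicles and carry most solutes through dedicated transporters, while pumps on the blood side return many lipophilic compounds to the blood. Much of this programme is induced during development by Wnt7a and Wnt7b from neural cells, among them OPCs, which act through frizzled receptors, Reck, Adgra2 and beta-catenin in the endothelial cell. OPCs and neurons are not themselves known as barrier cells, although members such as Tjp1, Slc2a1, Slc7a5 and Mfsd2a are known in other cell types too. Which cells of each fraction gave the RNA was not tested.

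The fractions held endothelial RNA in every library. All 18 endothelial marker genes (such as Cdh5, Tie1, Flt1 and Ly6c1, none of them among the 10) were detected in each of the 12 libraries. In the OPC libraries these markers summed to between 2011 and 2829 CPM (counts scaled to a common library size after TMM normalization) in ctl and between 1675 and 4552 CPM in dKO. In the neuron libraries they summed to between 23173 and 25659 CPM in ctl and between 12273 and 20740 CPM in dKO, while 12 neuron markers summed to only 770 to 1118 CPM in ctl and 1076 to 1752 CPM in dKO. The libraries labelled Neuron thus held far more endothelial than neuronal marker RNA although CD31 beads had been used. Those labelled OPC held more RNA of oligodendrocyte markers (49477 to 85811 CPM) than of OPC markers (366 to 1107 CPM). They also held more RNA of 6 choroid plexus markers (10417 to 24106 CPM in ctl and 16610 to 17489 CPM in dKO) than of endothelial markers. Cacna1c stood at 21.3 to 25.1 CPM in ctl OPCs and at 14.4 to 19.3 CPM in dKO OPCs, and Cacna1d at 10.9 to 14.6 CPM in ctl OPCs and 5.31 to 13.3 CPM in dKO OPCs. In neurons Cacna1c stood at 3.98 to 7.10 CPM in ctl and 3.67 to 10.5 CPM in dKO, and Cacna1d at 0.685 to 1.95 CPM and 1.64 to 3.51 CPM. These counts cover the whole genes and not only the floxed exons. Library totals were between 14935963 and 19812274 counts in OPCs and between 15052892 and 16344600 in neurons. The 10 genes took 0.154% to 0.213% of all counts in ctl OPC libraries, 0.141% to 0.362% in dKO OPC libraries, 1.58% to 1.71% in ctl neuron libraries and 0.761% to 1.46% in dKO neuron libraries. In such bulk libraries a different number of endothelial cells and a different amount of RNA per endothelial cell cannot be told apart.

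The claudin gene Cldn5, whose product is the main sealing claudin of brain capillaries, had the highest level per length of the 3 junction members in both tables. In OPC libraries it stood at 198, 141 and 206 CPM in ctl 1, 2 and 3 and at 244, 112 and 277 CPM in dKO 1, 2 and 3. The dKO values lay on both sides of the ctl values, with dKO 2 below every ctl library, and the log2 fold change (dKO over ctl) was 0.21 (SE 0.31, edgeR adjusted p = 0.828, n = 3 and 3). In neuron libraries Cldn5 stood at 1954, 1593 and 1771 CPM in ctl and at 908, 1454 and 1363 CPM in dKO. There each dKO library was below each ctl library, and the log2 fold change was -0.51 (SE 0.21), which had an unadjusted p of 0.0400 and an edgeR adjusted p of 0.541. Occludin (Ocln), a second membrane protein of the tight junction, stood in OPC libraries at 79.7, 49.1 and 68.0 CPM in ctl and 75.7, 58.1 and 98.9 CPM in dKO, and the groups overlapped (log2 fold change 0.24, SE 0.22). In neuron libraries Ocln stood at 727, 847 and 941 CPM in ctl and 385, 712 and 800.3 CPM in dKO. The dKO 1 library was again the lowest, and the other dKO libraries lay below ctl 1 or between the ctl libraries (log2 fold change -0.41, SE 0.27). Tjp1 encodes ZO-1, a scaffold that ties junction proteins to actin in epithelial, endothelial and other cells. It was the steadiest of the 10 in OPC libraries, at 279, 285 and 290.5 CPM in ctl and 280.5, 239 and 330.2 CPM in dKO (log2 fold change -0.0092, SE 0.14). In neuron libraries Tjp1 stood at 364, 423 and 442 CPM in ctl and at 159, 484 and 433 CPM in dKO, so that dKO 1 was lowest and dKO 2 highest of all (log2 fold change -0.19, SE 0.35).

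Pecam1, the endothelial adhesion molecule at cell contacts, stood at 121, 92.5 and 134 CPM in ctl OPC libraries and at 186, 82.3 and 247 CPM in dKO OPC libraries. Here dKO 1 and dKO 3 were above all ctl libraries and dKO 2 was below them (log2 fold change 0.57, SE 0.34, edgeR adjusted p = 0.556). In neuron libraries, which had been through the CD31 beads, Pecam1 stood at 654, 665 and 675 CPM in ctl and at 354, 612 and 597 CPM in dKO. The ctl libraries lay close together and every dKO library was below them (log2 fold change -0.35, SE 0.22, edgeR adjusted p = 0.665).

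Among the carriers, Slc2a1, the glucose transporter GLUT1 of the capillary wall, had the largest fold change of the 10 in OPC libraries. It stood at 521, 472 and 639 CPM in ctl and at 1041, 442 and 1206 CPM in dKO. The libraries dKO 1 and dKO 3 were above all ctl libraries, and dKO 2 was below them, so that the log2 fold change of 0.72 (SE 0.33) had an unadjusted p of 0.0600 and an edgeR adjusted p of 0.454. In neuron libraries Slc2a1 stood at 3374, 3838 and 3404 CPM in ctl and at 1714, 3040 and 3237 CPM in dKO, without overlap (log2 fold change -0.41, SE 0.25, edgeR adjusted p = 0.666). Slc7a5, the light chain of the large neutral amino acid carrier LAT1, stood at 112, 77.7 and 129 CPM in ctl OPC libraries and at 176, 97.7 and 219.6 CPM in dKO OPC libraries (log2 fold change 0.63, SE 0.29, edgeR adjusted p = 0.454). In neuron libraries it stood at 991, 1200 and 1178 CPM in ctl and at 446, 1043 and 998 CPM in dKO, with the dKO 2 and dKO 3 libraries inside the ctl range (log2 fold change -0.44, SE 0.30).

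Mfsd2a encodes a carrier of lysophospholipids, among them those with docosahexaenoic acid, and holds down vesicle traffic across brain endothelium. In OPC libraries it stood at 39.2, 35.7 and 38.4 CPM in ctl and at 46.3, 49.3 and 66.8 CPM in dKO. All dKO libraries were above all ctl libraries, dKO 2 included, and the log2 fold change was 0.52 (SE 0.15) with an unadjusted p of 0.00798 and an edgeR adjusted p of 0.310. In neuron libraries Mfsd2a stood at 433, 526 and 507 CPM in ctl and at 176, 558 and 432 CPM in dKO. There dKO 2 was the highest and dKO 1 the lowest library (log2 fold change -0.33, SE 0.36). Slco1a4, the organic anion transporter OATP1A4 of rodent brain endothelium, stood in OPC libraries at 354, 222 and 315 CPM in ctl and at 354, 195 and 460.5 CPM in dKO (log2 fold change 0.18, SE 0.30). In neuron libraries it was the most abundant of the 10, at 5182, 5293 and 6805 CPM in ctl and 2340.1, 4553 and 4693 CPM in dKO, without overlap (log2 fold change -0.58, SE 0.29, unadjusted p = 0.0772, edgeR adjusted p = 0.582).

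The efflux pump gene Abcb1a, one of the mouse genes for P-glycoprotein, stood at 210.2, 148 and 214 CPM in ctl OPC libraries and at 295, 128 and 391 CPM in dKO OPC libraries (log2 fold change 0.51, SE 0.35). In neuron libraries it stood at 1057, 962 and 1096 CPM in ctl and at 491, 891 and 879 CPM in dKO, with each dKO library below each ctl library (log2 fold change -0.46, SE 0.24, edgeR adjusted p = 0.591). Abcg2, the breast cancer resistance protein pump, stood at 58.1, 44.5 and 62.6 CPM in ctl OPC libraries and at 91.8, 42.6 and 117 CPM in dKO OPC libraries (log2 fold change 0.60, SE 0.32). In neuron libraries it stood at 937, 1006 and 1176 CPM in ctl and at 441, 879 and 986 CPM in dKO, with dKO 3 inside the ctl range (log2 fold change -0.44, SE 0.28). The paralog Abcb1b, which gives the other mouse P-glycoprotein, was nearly absent, at 3.40 to 5.57 CPM in OPC libraries and 0.788 to 3.19 CPM in neuron libraries. Reads that fit both Abcb1a and Abcb1b, or Slco1a4 and its neighbouring paralogs, could be split or lost in counting, so the levels of Abcb1a and Slco1a4 are uncertain to an unknown extent.

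**Figure D1:**
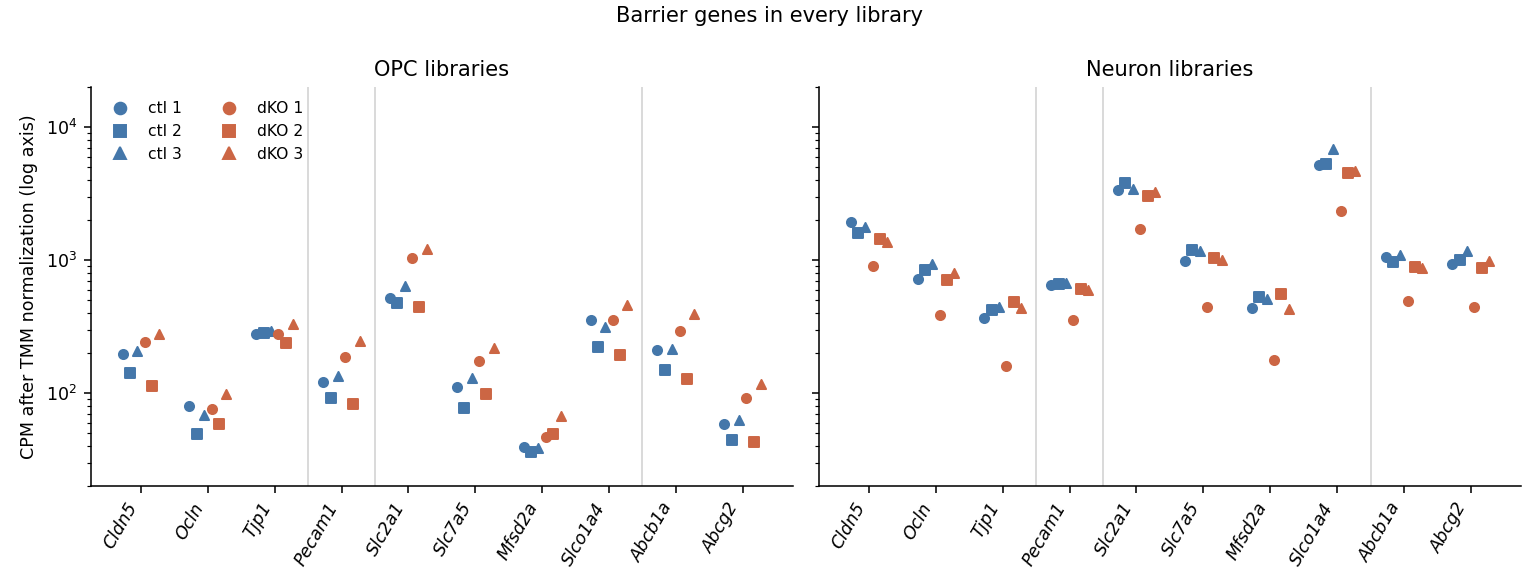
CPM after TMM normalization on a log axis of the 10 genes in each OPC library (left) and each neuron library (right), with ctl in blue, dKO in orange and a marker shape per replicate number. Grey lines part junction, adhesion, carrier and efflux genes. In OPC libraries most genes are high in dKO 1 and dKO 3 and low in ctl 2 and dKO 2, and in neuron libraries every gene is lowest in dKO 1.

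Counted over the 10 genes, 9 had a higher and 1 (Tjp1) a lower fitted level in OPCs of dKO mice, and their median log2 fold change was 0.51 against 0.0055 over all 17364 genes tested, of which 50.8% were higher. An edgeR adjusted p under 0.05 was reached by 0 of the 10 and by 0.00576% of all genes (1 gene), an unadjusted p under 0.05 by 1 of the 10 (Mfsd2a) and by 11.5% of all genes, and DESeq2 called 0 of the 10 and 1.69% of all genes. In OPC libraries the ctl and dKO values did not overlap for 1 of the 10 (Mfsd2a, dKO above ctl), against 17% of all genes in either direction and 7.41% with dKO above ctl. In dKO neurons all 10 had a lower fitted level, with a median log2 fold change of -0.42 against 0.0075 over all 14352 genes tested, of which 51.1% were higher. There edgeR called 0 of the 10 at an adjusted p under 0.05 and 0% of all genes, 1 of the 10 (Cldn5) and 9% of all genes had an unadjusted p under 0.05, and DESeq2 called 0 of the 10 and 0.613% of all genes. The dKO values were below all ctl values for 5 of the 10 (Cldn5, Pecam1, Slc2a1, Slco1a4 and Abcb1a), against 7.82% of all genes, and 15.3% of all genes had no overlap in either direction. The 10 genes were measured in the same libraries, so their common direction is 1 pattern and not 10. The tables of OPCs and neurons were counted in different ways, and the difference between the cell types was not tested.

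In OPC libraries most members moved together, high and low with the endothelial markers. In neuron libraries members and markers shared a deep fall in dKO 1 and a smaller one in the other dKO libraries. In OPC libraries the mean of the 10 profiles (log2 CPM of each gene minus its mean) was -0.060, -0.45 and -0.012 in ctl 1, 2 and 3 and 0.33, -0.48 and 0.67 in dKO 1, 2 and 3. The endothelial markers summed to 2682, 2011 and 2829 CPM in the ctl libraries and 3601, 1675 and 4552 CPM in the dKO libraries, high and low in the same places. All 18 markers had a higher fitted level in OPCs of dKO mice (median log2 fold change 0.40), and 1 of them had an unadjusted p under 0.05. Mfsd2a (range over the 6 libraries 0.90 on the log2 scale) and Tjp1 (range 0.47) departed most from the mean profile, with root mean square differences of 0.30 and 0.31, against 0.13 to 0.20 for the other members. In neuron libraries the mean profile was 0.15, 0.24 and 0.33 in ctl and -0.93, 0.12 and 0.088 in dKO. The endothelial markers summed to 25659, 23173 and 25538 CPM in ctl and 12273, 20740 and 20279 CPM in dKO. Both the mean profile and the marker sum were lower in each dKO library than in each ctl library. All 18 markers had a lower fitted level in dKO neurons, with a median log2 fold change of -0.40, and 3 of them had an unadjusted p under 0.05. For 7 of the 18 the groups did not overlap, against 15.3% of all genes in either direction. Within the ctl neuron libraries the order differed, since ctl 1 had the highest marker sum and the lowest mean profile. Tjp1 and Mfsd2a were again the members farthest from the mean profile, at 0.19 each, with Cldn5 at 0.18.

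**Figure D2:**
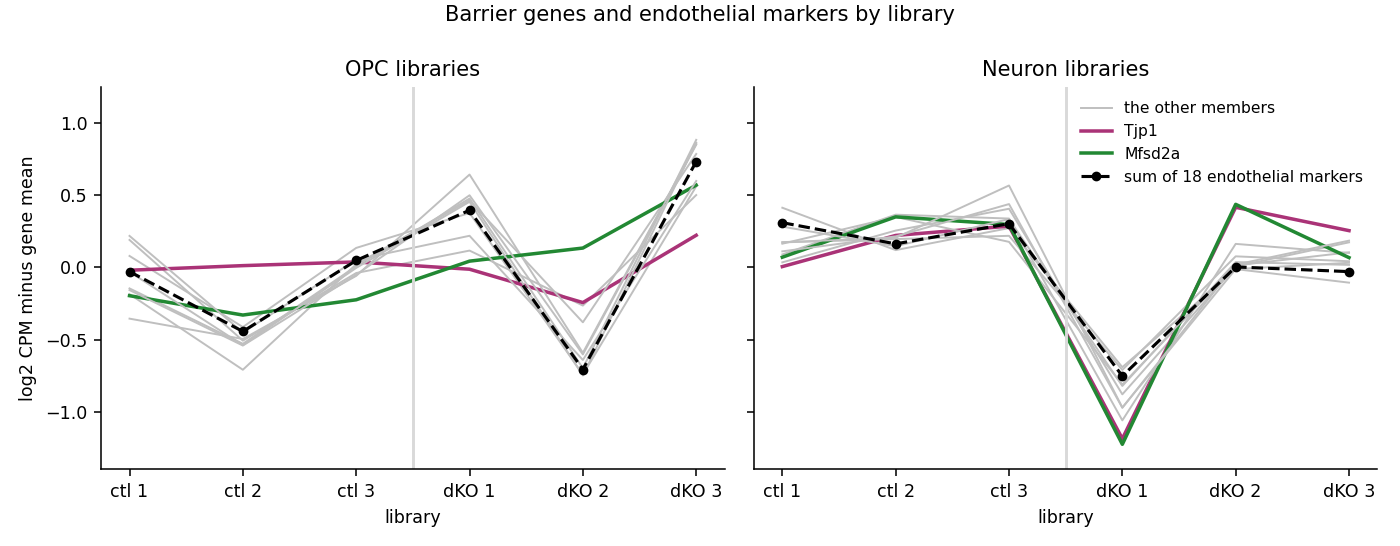
Log2 CPM of each gene minus its mean over the 6 libraries of a cell type, with 1 line per gene (Tjp1 purple, Mfsd2a green, the other members grey) and the summed 18 endothelial markers dashed in black. Lines only join the values of a gene, since libraries have no order. The dashed line falls with most of the grey lines at ctl 2 and dKO 2 of the OPC libraries and at dKO 1 of the neuron libraries, while Mfsd2a does not fall at dKO 2 of the OPC libraries.

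Single libraries decided several of these values. Without dKO 2, all 10 genes were higher in dKO OPCs, 7 had an unadjusted p under 0.05 (13.3% of all genes did), and Slc2a1 (log2 fold change 1.05) and Abcg2 (0.92) passed, each with an edgeR adjusted p of 0.0493, where 1.15% of all genes passed. The median log2 fold change of the 10 was then 0.71. Without dKO 3, the median fell to 0.17 and 7 of the 10 were higher, from 0.018 (Ocln) to 0.44 (Slc2a1), with Abcb1a at 0.14, Pecam1 at 0.20 and Abcg2 at 0.28. Cldn5 and Slco1a4 then turned to log2 fold changes of -0.038 and -0.12. Without ctl 2, the median was 0.39, and Cldn5 (0.061), Ocln (0.070) and Slco1a4 (0.0077) came near 0. In neurons without dKO 1, the median log2 fold change of the 10 was -0.15, 8 were lower, and Tjp1 (0.16) and Mfsd2a (0.020) turned to the higher side. Cldn5 kept a log2 fold change of -0.33 there, with an unadjusted p of 0.0391 and an edgeR adjusted p of 0.598.

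Markers of other cells also differed between these libraries. Their counts stand against 11.5% of all genes in OPCs and 9% in neurons with an unadjusted p under 0.05 in either direction. In OPC libraries the 10 pericyte markers were all detected in every library and summed to 806, 615 and 899 CPM in ctl and 1197, 592 and 1256 CPM in dKO. The 12 microglia markers, none at 0, summed to 285 to 346 CPM in ctl and to 893, 379 and 1161 CPM in dKO 1, 2 and 3, and 12 of 12 were higher with an unadjusted p under 0.05. The 10 astrocyte markers, none at 0, summed to 1129 to 2007 CPM in ctl and to 1937, 5826 and 3047 CPM in dKO, and 9 of 10 were higher with an unadjusted p under 0.05. The 10 OPC markers, none at 0, summed to 1107 CPM in dKO 2, their highest library, where Mfsd2a stood above every ctl library, while Ocln and Slc7a5 stood above ctl 2 alone and the other members stood below every ctl library. The 10 oligodendrocyte markers, none at 0, summed to 67104 to 79103 CPM in ctl OPC libraries and to 85811, 71207 and 49477 CPM in dKO, lowest in dKO 3, where each of the 10 barrier genes was highest, and 2 of the 10 markers were lower with an unadjusted p under 0.05. In neuron libraries dKO 1 held the most globin and other erythrocyte marker RNA (73184 CPM against 11091 to 49174 CPM in ctl, 5 markers, none at 0). It also held the most choroid plexus marker RNA (31497 CPM against 5150 to 9685 CPM in ctl, 6 markers, none at 0). The dKO 2 and dKO 3 libraries held 27302 and 17390 CPM of erythrocyte markers, inside the ctl range. Their choroid plexus markers summed to 8947 CPM, also inside the ctl range, and 15189 CPM. By the fit, 6 of 6 choroid plexus markers were higher with an unadjusted p under 0.05. The 12 neuron markers were highest in dKO 1 (1752 CPM), with 11 on the higher side in dKO and 1 of them at an unadjusted p under 0.05. Microglia markers of the neuron libraries summed to 2170, 475 and 1000.1 CPM in ctl and 459, 1187 and 679 CPM in dKO, with all 12 on the lower side and 0 at an unadjusted p under 0.05. Oligodendrocyte markers summed there to 4125, 2379 and 783 CPM in ctl and 1190.1, 1259 and 1987 CPM in dKO, with all 10 on the lower side (median log2 fold change -0.91) and 1 at an unadjusted p under 0.05. The pericyte markers of the neuron libraries summed to 619 to 1428 CPM in ctl and 866 to 1419 CPM in dKO. The part of these other cells in the values of the 10 genes was not tested. With the globin and choroid plexus marker genes left out of normalization and test, 0 of the 10 passed in either cell type and no direction changed.

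Since the endothelial markers varied between libraries along with the 10 genes, each gene was also expressed per 1000 counts of the 18 markers. On this scale the OPC libraries lay closer together than in CPM for all members but Tjp1 (72.55 to 142.6 per 1000) and Mfsd2a (12.9 to 29.4 per 1000), which spread farther apart. Abcg2 stood at 21.7, 22.1 and 22.1 per 1000 in ctl OPC libraries and at 25.5, 25.4 and 25.7 per 1000 in dKO OPC libraries, with dKO 2 beside the other dKO libraries (difference of mean log2 ratios 0.22, SE 0.011). Slc2a1 stood at 194, 235 and 226 per 1000 in ctl OPC libraries and at 289, 264 and 265 per 1000 in dKO OPC libraries (difference 0.32, SE 0.094). Pecam1 stood at 45.04, 46.0 and 47.5 per 1000 in ctl and 51.7, 49.1 and 54.2 per 1000 in dKO (difference 0.16, SE 0.047), and Slc7a5 at 41.7, 38.7 and 45.7 per 1000 in ctl and 48.8, 58.3 and 48.2 per 1000 in dKO (difference 0.30, SE 0.11). In these 4 genes every dKO OPC library was above every ctl library. Cldn5 went the other way, at 74.0, 70.1 and 72.9 per 1000 in ctl and 67.7, 67.0 and 60.9 per 1000 in dKO, with every dKO library below every ctl library (difference -0.15, SE 0.054). The other members overlapped between the groups, with differences from -0.30 (Tjp1) to 0.22 (Mfsd2a, which lay at 12.9, 29.4 and 14.7 per 1000 in dKO). With 1 library left out, Tjp1 ranged from -0.61 (without dKO 2) to -0.12 (without dKO 3), and Mfsd2a from -0.15 (without dKO 2) to 0.45 (without dKO 1). Over all genes tested in OPCs, 1.92% were above and 2.41% below in every library on this scale. For the 5 genes without overlap the two-sided exact permutation test gave p = 0.1, the smallest that 3 against 3 libraries allow, and 0.333 after Benjamini-Hochberg adjustment over the 20 ratios tested, so that this test could not reach 0.05 for any ratio.

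In neuron libraries Pecam1 alone was above ctl in every dKO library on this scale, at 25.5, 28.7 and 26.4 per 1000 in ctl and 28.9, 29.5 and 29.5 per 1000 in dKO (difference 0.13, SE 0.051, exact permutation p = 0.1, adjusted 0.333). The other 9 overlapped, and the differences of all 10 ran from -0.11 (Slco1a4) to 0.18 (Tjp1) with a median of 0.023. Both ends rested on single libraries, since Tjp1 ranged from 0.012 without dKO 2 to 0.44 without dKO 1, and Slco1a4 from -0.21 without ctl 1 to -0.011 without ctl 3. Cldn5, the member with the smallest p in neurons before, stood at 76.1, 68.8 and 69.4 per 1000 in ctl and 73.9, 70.1 and 67.2 per 1000 in dKO (difference -0.020, SE 0.062, exact permutation p = 0.7). In this scaling 40.2% of all neuron genes were above ctl in every dKO library and 0.446% below, since the median gene then moved by 0.56 on the log2 scale. When edgeR was fitted with library sizes set to the endothelial marker counts, 0 of the 10 passed in either cell type, at 0.0806% of all genes in OPCs and 0% in neurons. The median log2 fold change of the 10 was then 0.13 in OPCs, where all genes had a median of -0.16, and 0.030 in neurons, where all genes had a median of 0.56.

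**Figure D3:**
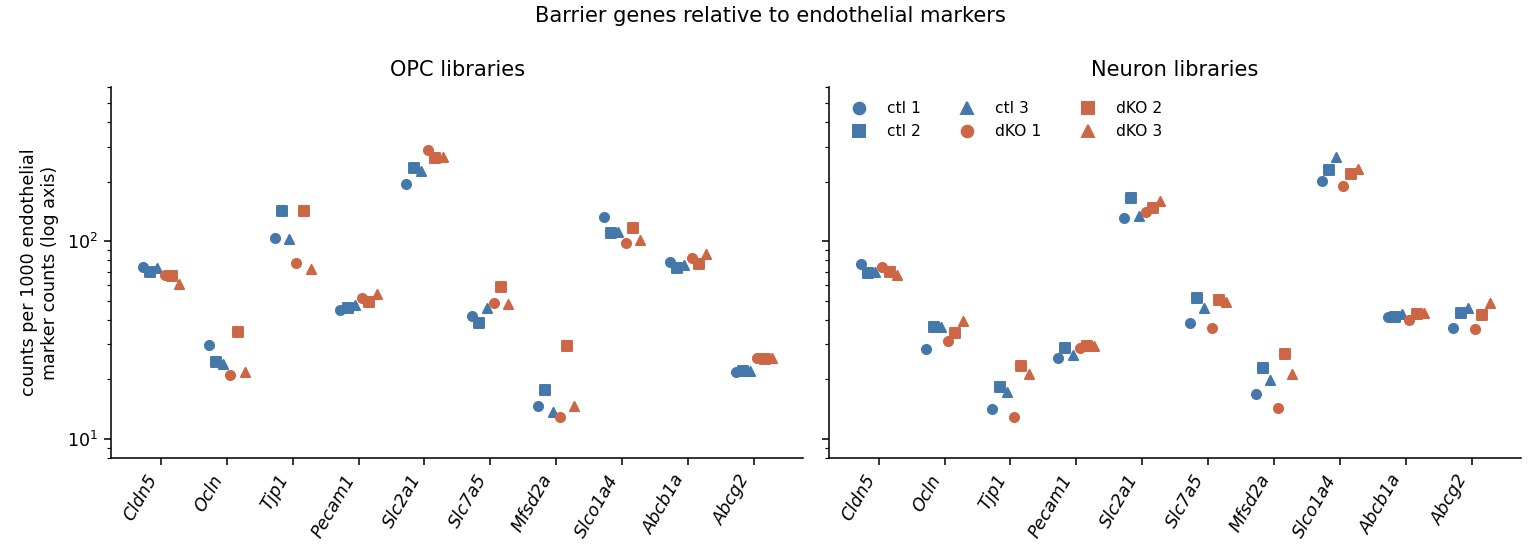
Counts of each gene per 1000 counts of 18 endothelial marker genes on a log axis, in the OPC libraries (left) and the neuron libraries (right), with ctl in blue and dKO in orange. The points of Abcg2 in OPC libraries form 1 cluster at 21.7 to 22.1 for ctl and 1 at 25.4 to 25.7 for dKO, and the spread between libraries is widest for Mfsd2a and Tjp1.

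**Figure D4:**
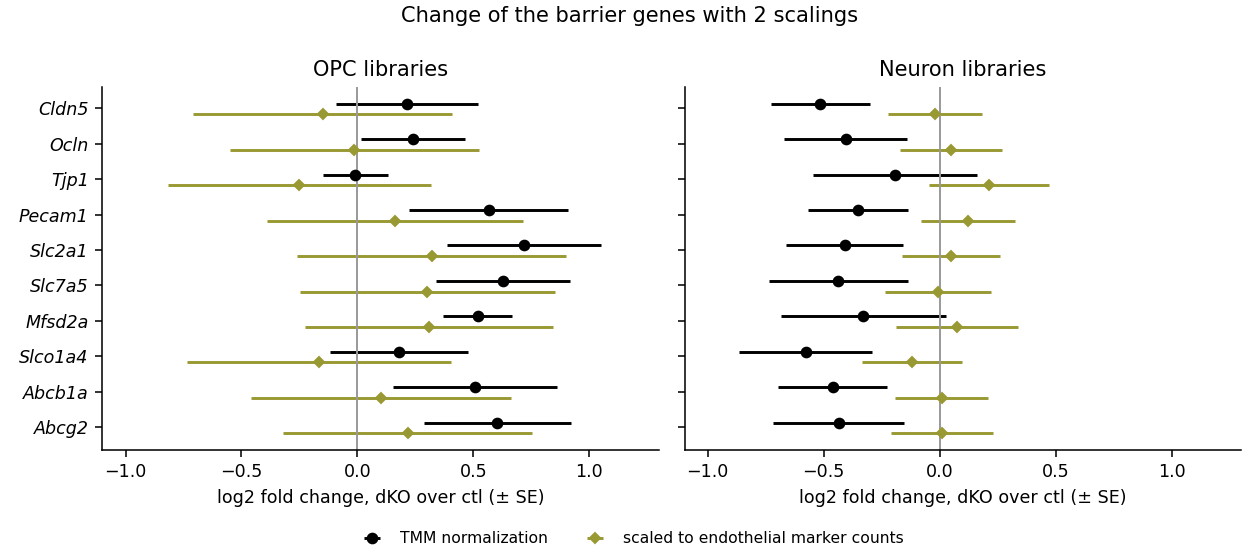
Log2 fold change of dKO over ctl with its SE from edgeR for the 10 genes, with TMM normalization (black circles) and with library sizes set to endothelial marker counts (olive diamonds). With TMM the genes lie mostly above 0 in OPC libraries and all below 0 in neuron libraries, and with the endothelial scaling they lie around 0 in both.

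Levels between genes were compared per length, from the authors' FPKM in OPCs and their TPM in neurons. In ctl OPC libraries Slc2a1 was highest, with a median of 146 FPKM (135 to 181), followed by Cldn5 at 138 FPKM (99.7 to 145), and the ranges of this pair overlapped. Slco1a4 (48.8 FPKM), Abcb1a (37.8 FPKM) and Tjp1 (36.6 FPKM) came next, each overlapping its neighbour, and all Cldn5 values were above those of Slco1a4. Slc7a5 (29.7 FPKM), Pecam1 (19.1 FPKM), Mfsd2a (16.97 FPKM) and Ocln (16.0 FPKM) followed, again with overlap from each to the next, and Abcg2 was lowest at 7.01 FPKM (5.47 to 7.63), below every value of Ocln. In ctl neuron libraries Slco1a4 (2588 TPM, 2574 to 3014), Slc2a1 (2480.0 TPM, 2201 to 2735) and Cldn5 (2267 TPM, 2245 to 2843) led with overlapping ranges. Abcg2, last in the OPC libraries, was the fourth in the neuron libraries at 863 TPM (826 to 913), above Slc7a5 at 543 TPM, Ocln at 427 TPM and Mfsd2a at 394 TPM. Pecam1 (364 TPM) and Abcb1a (335 TPM) overlapped, and Tjp1 was lowest at 101 TPM (93.8 to 106), below every value of Abcb1a.

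**Figure D5:**
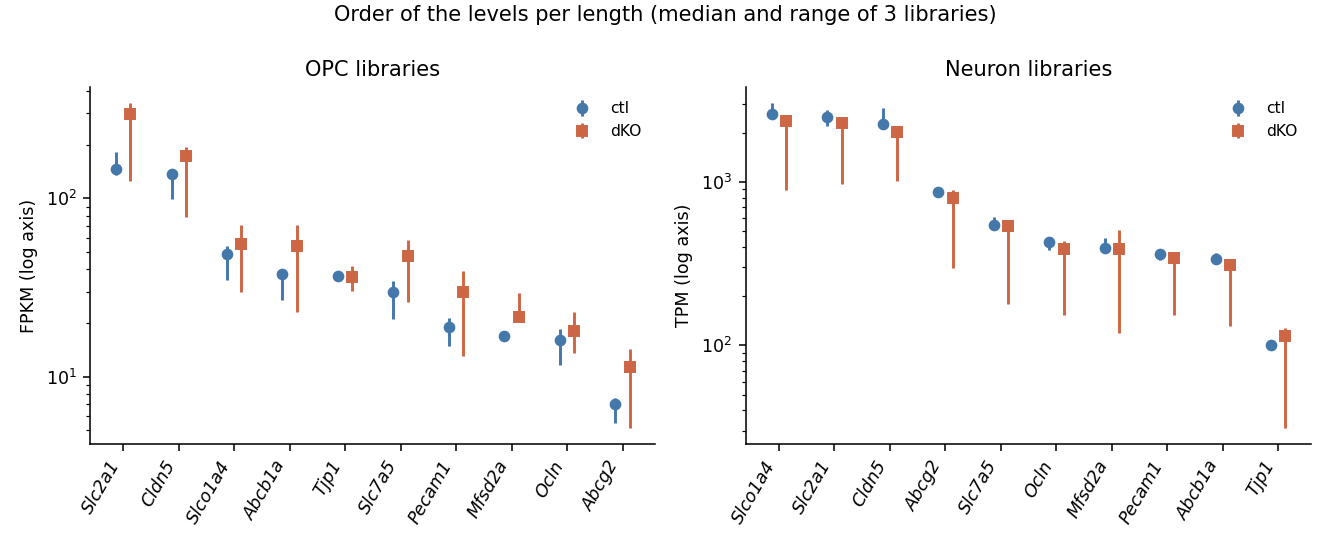
Median (point) and range (bar) over 3 libraries of the authors' FPKM in OPC libraries (left) and TPM in neuron libraries (right), on log axes, for ctl (blue circles) and dKO (orange squares), with the genes in the order of their ctl median. Slc2a1 and Cldn5 are among the top 3 in both panels, Abcg2 is last on the left and the fourth on the right, and each dKO bar but that of Mfsd2a in OPCs reaches down to 1 low dKO library.

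Set side by side, the ctl means in CPM were higher in the neuron table for every member, by unequal factors. Slco1a4 was 19.4 times and Abcg2 18.9 times as high in the neuron table as in the OPC table, Mfsd2a 12.9 times, Ocln 12.8 times, Slc7a5 10.6 times, Cldn5 9.75 times, Slc2a1 6.51 times, Pecam1 5.73 times and Abcb1a 5.44 times. Tjp1, at 285 ± 5.68 CPM (SD, n = 3) in ctl OPC and 410 ± 40.7 CPM (SD, n = 3) in ctl neuron libraries, was only 1.44 times as high, and per 1000 endothelial counts it was far higher in ctl OPC libraries (103 to 142) than in ctl neuron libraries (14.2 to 18.3). The tables differ in annotation and counting, so these ratios are values side by side and were not tested.

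The neuron table resolves RefSeq transcripts, and the shares of each gene in its transcripts are given for the 6 libraries. Cldn5, Slc7a5 and Abcb1a had 1 transcript each. NM_011400 took 98.5% to 99.04% of Slc2a1 counts and NM_029662 93.2% to 95.0% of Mfsd2a counts. Of 7 Abcg2 transcripts, NM_001381927 took 82.3% to 85.4% in ctl and 81.3% to 84.9% in dKO. Of 9 Slco1a4 transcripts, NM_001355577 took 64.9% to 72.2% in ctl and 64.1% to 74.3% in dKO. Ocln counts were mostly in NM_008756, with 54.9% to 60.9% in ctl and 55.4% to 64.5% in dKO. Pecam1 was split about evenly over NM_008816, NM_001305157 and NM_001032378, each at 25.5% to 37.8% in every library. Of 9 Tjp1 transcripts, the model transcript XM_006540785 took 44.6% to 50.4% in ctl and 42.6% to 48.2% in dKO. These shares are estimates from reads that can fit several transcripts, and no test was made on them.

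Promoter sequence is shown for a pair of members among the best expressed per length in both tables (Cldn5 and Slc2a1). It is also shown for the member with the highest level in neuron libraries (Slco1a4) and for Mfsd2a. Along with Tjp1, Mfsd2a departed most from the mean profile in OPC libraries. Each line gives the 250 bases before the RefSeq start site, from the RefSeq promoter table of GRCm38.p6, 5′ to 3′ on the gene's strand: chr16:18776597-18776846 (plus strand), chr4:119108495-119108744 (plus), chr6:141856221-141856470 (minus) and chr4:122961189-122961438 (minus). Capitals mark matches on either strand to 6 short motifs, which do not overlap in these 4 windows.
Cldn5: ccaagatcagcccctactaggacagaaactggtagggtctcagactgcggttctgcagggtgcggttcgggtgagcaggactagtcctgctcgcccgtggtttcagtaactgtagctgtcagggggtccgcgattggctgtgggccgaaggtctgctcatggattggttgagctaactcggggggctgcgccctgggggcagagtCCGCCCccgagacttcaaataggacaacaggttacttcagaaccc
Slc2a1: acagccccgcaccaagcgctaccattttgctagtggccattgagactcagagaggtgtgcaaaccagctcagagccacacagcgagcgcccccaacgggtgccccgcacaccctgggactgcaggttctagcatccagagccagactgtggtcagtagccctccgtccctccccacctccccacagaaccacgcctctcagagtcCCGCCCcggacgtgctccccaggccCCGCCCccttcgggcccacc
Slco1a4: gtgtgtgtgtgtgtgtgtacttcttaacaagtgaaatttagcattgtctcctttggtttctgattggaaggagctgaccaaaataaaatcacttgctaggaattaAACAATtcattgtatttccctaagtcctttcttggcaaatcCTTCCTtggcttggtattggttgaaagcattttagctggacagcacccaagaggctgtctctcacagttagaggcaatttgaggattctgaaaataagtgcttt
Mfsd2a: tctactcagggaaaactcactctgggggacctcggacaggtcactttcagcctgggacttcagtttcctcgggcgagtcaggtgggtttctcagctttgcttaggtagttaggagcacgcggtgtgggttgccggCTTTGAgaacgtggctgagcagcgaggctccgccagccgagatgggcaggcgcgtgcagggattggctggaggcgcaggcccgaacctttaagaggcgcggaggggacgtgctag
Of the 10 genes, 8 had an entry in that table, with 11 promoters in all, of 32851 promoters searched. The GC box (GGGCGG) was present in 7 of the 11, before Cldn5 (1 match), Slc2a1 (2 matches), Ocln, Tjp1 and Abcg2, and in 32.7% of all promoters. The ETS motif (AGGAAG) was present in 5 of the 11, before Slco1a4, Abcb1a and Abcg2, and in 29.5% of all promoters. The TCF/LEF motif (CTTTGA) was present in 2 of the 11, before Mfsd2a and Abcb1a, and in 13.8% of all promoters. The SOX motif (AACAAT) was found before Slco1a4, and in 9.42% of all promoters. The FOX motif (GTAAACA) was found before Abcb1a, and in 3.17% of all promoters. The TATA box (TATAAA) was in none of the 11, and in 12.4% of all promoters. The 250 bases before Slco1a4 and before Abcb1a held 0 CpG, those before Cldn5 12, Slc2a1 13, Mfsd2a 17 and Tjp1 22. The promoters of Ocln held 14 and 22, and those of Abcg2 held 3, 10 and 23. The median over all promoters was 6. Such matches describe these letters only.

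In the deposited OPC table Cldn5 (ENSMUSG00000041378) lies on chromosome 16 from 18595597 to 18597012, Slc2a1 (ENSMUSG00000028645) on chromosome 4 from 118965908 to 118995180, Slco1a4 (ENSMUSG00000030237) on chromosome 6 from 141751166 to 141801925 and Mfsd2a (ENSMUSG00000028655) on chromosome 4 from 122840643 to 122854981. All 10 are annotated there as protein coding. For 0 of the 10 do these starts and ends match GRCm38, which the methods name, and the labels name mm39, so the deposited coordinates and those of the promoters belong to different builds.

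Other genes of the barrier were read from 6 lists set for this description, and 0 of their genes had an edgeR adjusted p under 0.05 in either cell type. The counts at an unadjusted p under 0.05 that follow stand against 11.5% of all genes in OPCs and 9% in neurons, in either direction. The list of 15 further junction genes includes Cdh5 and Esam, which are also endothelial markers. Of these 15, 1 was higher and 0 lower in dKO OPCs at an unadjusted p under 0.05. That gene, Jam2, a junctional adhesion molecule, stood at 74.9, 74.8 and 89.1 CPM in ctl and at 102, 117 and 118 CPM in dKO, without overlap (log2 fold change 0.50, SE 0.12, edgeR adjusted p = 0.283). Jam3, of the same family, had the next smallest p (log2 fold change -0.36, SE 0.17). In dKO neurons 1 of the 15 was higher and 1 lower at an unadjusted p under 0.05: Cldn1 (1.27, SE 0.41), highest in the dKO 1 library at 78.2 CPM, and Cdh5, the cadherin of endothelial contacts (-0.39, SE 0.16). F11r, which encodes JAM-A, followed at -0.35 (SE 0.18).

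Of 22 further carrier genes, 1 was higher and 1 lower in dKO OPCs. Slc3a2, the heavy chain that pairs with the Slc7a5 product, stood at 181, 147 and 168 CPM in ctl and 212, 201 and 229.8 CPM in dKO (log2 fold change 0.38, SE 0.12, edgeR adjusted p = 0.327), and Slc6a9, a glycine transporter, was lower (-0.34, SE 0.14). The zinc exporter gene Slc30a1 had the next smallest p (0.28, SE 0.16). In dKO neurons 0 of the 21 tested were higher and 2 lower at an unadjusted p under 0.05, and in 8 of the 21 the groups did not overlap, against 15.3% of all genes. Slc16a1, the monocarboxylate carrier MCT1, stood at 3025, 2532 and 3787 CPM in ctl and 1236, 2141 and 2126 CPM in dKO (log2 fold change -0.76, SE 0.26, edgeR adjusted p = 0.521), and Slc38a5, a glutamine carrier, had a log2 fold change of -0.59 (SE 0.22). Slc3a2 came next, at -0.46 (SE 0.22). Against the Slc7a5 values above, Slc3a2 was thus on the same side as its partner in both cell types, and in OPCs dKO 2 did not stand below ctl for Slc3a2.

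Of 7 further efflux genes, 0 were higher and 1 lower in dKO OPCs (Abcc5, log2 fold change -0.31, SE 0.13), with Abcc4 (0.57, SE 0.30) and the cholesterol exporter gene Abca1 (0.21, SE 0.14) next. None of the 7 had an unadjusted edgeR p under 0.05 in neurons, where Abcc6 (-0.32, SE 0.25), Abcc5 (0.19, SE 0.18) and Abcc4 (-0.36, SE 0.35) had the smallest. Of 22 genes of the Wnt pathway and its endothelial targets, 3 were higher and 1 lower in dKO OPCs at an unadjusted p under 0.05, against 11.5% of all genes. The tetraspanin gene Tspan12, a partner of the receptor Fzd4, stood at 17.97, 16.1 and 22.6 CPM in ctl and at 23.8, 28.6 and 25.6 CPM in dKO (log2 fold change 0.46, SE 0.16). Nkd1, a Wnt inhibitor, was lower (-0.29, SE 0.11). The ligand gene Wnt7b stood at 5.66, 8.11 and 11.9 CPM in ctl and 9.51, 24.6 and 14.3 CPM in dKO OPCs (log2 fold change 0.92, SE 0.38, edgeR adjusted p = 0.412), and Wnt7a at 1.95, 5.59 and 6.22 CPM and 4.86, 14.8 and 6.12 CPM (0.92, SE 0.52). Both ligands were highest in dKO 2, the library with the most astrocyte marker RNA (5826 CPM against 1129 to 3047 CPM in the other OPC libraries), the most OPC marker RNA and the least of most members. The part of these cells in the ligand values was not tested. The receptor gene Adgra2 had a log2 fold change of 0.42 (SE 0.26).

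In dKO neurons 1 of these 22 was higher and 1 lower at an unadjusted p under 0.05. Wnt7a stood at 5.27, 6.79 and 5.97 CPM in ctl and at 9.91, 11.8 and 9.83 CPM in dKO (log2 fold change 0.81, SE 0.25, edgeR adjusted p = 0.521), and Reck, the endothelial receptor partner for that ligand, at 166, 149 and 162 CPM in ctl and 73.3, 128 and 110.5 CPM in dKO (-0.61, SE 0.20, edgeR adjusted p = 0.521). Neither group pair overlapped. Tnfrsf19 followed at -0.46 (SE 0.24), while Wnt7b (0.45, SE 0.53) and Adgra2 (-0.29, SE 0.31) were low in neuron libraries, at 1.37 to 4.14 CPM and 6.62 to 13.5 CPM.

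Genes of vesicle transport and leak were read beside Mfsd2a, whose product holds down vesicle traffic across brain endothelium. Of 7, 1 was higher and 0 lower in dKO OPCs at an unadjusted p under 0.05 (Cav2, log2 fold change 0.48, SE 0.19), and 0 were higher and 0 lower in dKO neurons. Cav1, the main caveolin, stood at 70.6, 58.3 and 81.9 CPM in ctl OPC libraries and 108, 59.4 and 136 CPM in dKO OPC libraries (0.52, SE 0.27), with Clic5 (0.67, SE 0.35) beside it. In neuron libraries Cav1 stood at 1074, 999 and 1059 CPM in ctl and 502, 917 and 855 CPM in dKO (-0.46, SE 0.23), with Cavin1 (-0.45, SE 0.21) and Cavin2 (-0.40, SE 0.20) beside it. Plvap, which marks fenestrated or leaky endothelium, stood at 1.19 to 3.19 CPM in OPC libraries and 1.04 to 4.64 CPM in neuron libraries, the highest neuron value being in dKO 1. Of 6 leukocyte adhesion genes, 5 were tested in OPCs, with 1 higher (Vcam1, log2 fold change 0.42, SE 0.18) and Icam1 (0.54, SE 0.24) and Icam2 (0.63, SE 0.30) next. In neurons 3 of the 4 tested were lower at an unadjusted p under 0.05, where 9% of all genes passed in either direction. They were Vcam1 (-1.08, SE 0.39), Ackr1 (-2.09, SE 0.80) and Icam1 (-0.71, SE 0.29), all of them highest in the ctl 1 library, where Vcam1 stood at 398 CPM against 146 and 136 CPM in the other ctl libraries and 85.2 to 122 CPM in dKO. The ctl 1 library also held the most microglia, oligodendrocyte and astrocyte marker RNA of the neuron libraries, with astrocyte markers at 1162 CPM against 434 and 519 CPM in the other ctl libraries, and the part of these cells in the adhesion genes was not tested.

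The genes outside the 10 whose centred log2 CPM profile came closest to the mean profile of the members, by root mean square difference over 6 libraries, were in OPCs Ctsh (0.034), Hlx (0.040), Myo1c (0.048), Podxl (0.049) and Parp10 (0.051), of 17354 genes. Podxl is one of the 18 endothelial markers. In neurons they were Nrp1 (0.047), a co-receptor of vascular endothelial growth factor, Kank3 (0.051), Lifr (0.051), Ddc (0.056) and the caveolin gene Cav2 (0.063), of 14272 genes.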

How the data were processed

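The 12 libraries were grouped by their titles and genotype labels. For OPCs, raw counts per Ensembl gene were deposited, made per the authors' methods with HISAT2 and featureCounts on GRCm38 (the submitters' processing notes name mm39), together with FPKM and a normalized signal that was not used. For neurons the authors gave estimated counts, FPKM and TPM per RefSeq transcript. The methods name featureCounts for the gene counts of all samples, and no program for estimated counts per transcript is given in the sources used here. The deposited columns of the authors' own comparisons (log2 fold changes and p-values) were not used. The number of per-sample columns not mapped to a sample was 0.

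Neuron estimated counts were summed per gene and rounded. RefSeq symbols matched 17794 gene identifiers, and 0.0441% of the counts had none. Within each cell type, genes whose TMM-normalized counts averaged 10 or more were tested in edgeR 4.0.16 (R 4.3.3) by quasi-likelihood F-tests of genotype, and p-values were adjusted over all genes tested by the Benjamini-Hochberg method at 0.05. SE is the log2 fold change over the square root of F. Likeness of profiles used log2 CPM with a prior count of 2. Ratios to 18 endothelial markers were compared by two-sided exact permutation tests (Python 3.11.15, scipy 1.17.1), which cannot go under 0.1. DESeq2 1.42.0, limma 3.58.1, other scalings and filters, a replicate block and each library left out were alternatives. No replicate pair was a copy. On simulated counts for all 17364 OPC and 14352 neuron genes with 200 changed by 2 on the log2 scale, 176 and 163 of the changed genes were called, with 18 and 13 unchanged ones. Every member changed less than this in the main fit (-0.0092 to 0.72 in OPCs and -0.58 to -0.19 in neurons). How well changes of that smaller size are found was not tested.

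The members and all gene lists were chosen with earlier results of these data known. The text names all members, 7 partner genes, the targeted genes, the 5 genes with the most similar profile, and, of each of 6 other barrier lists, at most 3 genes with the lowest p per cell type; 1 gene this rule selects is not reported here. Per the study's methods 2 mice of one genotype were pooled. Whether OPC and neuron libraries share mice is not stated, and no test was made between them.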

Additional observations from a re-analysis of the deposited data

How the results depend on the processing

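The main fit of the 10 genes, with TMM normalization, was compared with alternatives. Under other tools, scalings and filters, 95 of 100 fits in OPCs and 103 of 110 in neurons kept its direction and side of the adjusted threshold. With 1 library left out, 55 of 60 in OPCs and 58 of 60 in neurons did so. The number of members called was 0 in the main fit of both cell types, and 1 in OPCs and 1 in neurons at an unadjusted p under 0.05. That unadjusted count was 3 in OPCs (11.9% of all genes) and 3 in neurons (10.7%) with DESeq2, 5 in OPCs with no filter (9.15%), 5 in OPCs (11.7%) and 2 in neurons (8.95%) with the replicate block, 0 in OPCs (2.02%) and 0 in neurons (27.1%) scaled to endothelial marker counts, and 0 in neurons with library totals (9.46%) and without ctl 1, ctl 2, ctl 3 or dKO 3 (5.45% to 8.35%). In OPCs the number of genes called, 1 in the main fit, was 2003 at an unadjusted p under 0.05, 293 with DESeq2, 14 scaled to endothelial marker counts and 87 with no filter on low counts. In neurons it was 0 in the main fit, 1292 at an unadjusted p under 0.05 and 88 with DESeq2. Why the tools differ was not tested. Whether ctl and dKO libraries with the same replicate number belong together is not given in the sources used here. Correlations of same-numbered deviations were -0.11, 0.15 and 0.12 in OPCs and 0.17, -0.067 and -0.069 in neurons. For ctl and dKO libraries with different numbers, the OPC correlations lay between -0.31 and 0.22, and the neuron ones between -0.15 and 0.21. These correlations could not decide the question, because deviations within a group of 3 libraries must sum to 0. With the replicate block 27 genes were called in OPCs and 0 of the 10 members in either cell type. Scaled to endothelial marker counts, log2 fold changes turned to -0.15 (Cldn5), -0.014 (Ocln) and -0.16 (Slco1a4) in OPCs and to 0.049 (Ocln), 0.21 (Tjp1), 0.12 (Pecam1), 0.051 (Slc2a1), 0.075 (Mfsd2a), 0.0085 (Abcb1a) and 0.011 (Abcg2) in neurons, with a neuron median of 0.030. By construction this scaling removes what members and endothelial markers share and shifts all genes alike (neuron median of all genes 0.56). These signs therefore place each member relative to those markers only and do not show whether its level changed. Tjp1 in OPCs turned to 0.015 without the filter and 0.015 with TMM factors from all genes, an alternative added after seeing the data, as were the exclusion of globin and choroid genes and the ratios with 1 library left out.

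With 1 library left out, OPC members called ranged from 0 to 2 and OPC genes called from 1 to 199, both highest without dKO 2. Ranges of log2 fold changes were -0.038 to 0.52 (Cldn5), -0.14 to 0.10 (Tjp1) and -0.12 to 0.46 (Slco1a4) in OPCs, with the low ends without dKO 3, and -0.46 to 0.16 (Tjp1) and -0.68 to 0.020 (Mfsd2a) in neurons, with the high ends without dKO 1. Ratios to endothelial markers ranged from -0.28 to 0.083 (Ocln) and -0.15 to 0.45 (Mfsd2a) in OPCs. In neurons they ranged from -0.056 to 0.027 (Cldn5), -0.071 to 0.13 (Ocln), -0.0018 to 0.16 (Slc2a1), -0.12 to 0.14 (Slc7a5), -0.17 to 0.28 (Mfsd2a), -0.014 to 0.044 (Abcb1a) and -0.098 to 0.12 (Abcg2). Relative to Cdh5, Tie1, Erg and Egfl7 alone, neuron ratios turned to -0.033 (Ocln), -0.029 (Slc2a1), -0.047 (Mfsd2a), -0.078 (Abcb1a) and -0.078 (Abcg2), and all 10 OPC ratios kept their direction. With 3 libraries per group, the spread between libraries limits every comparison.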
